A study of Homo sapiens with 4 samples.

Results

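The integrin and laminin chains of HCT116 cells were examined with every probe whose gene symbol names an integrin α chain (*ITGA*), an integrin β chain (*ITGB*) or a laminin chain (*LAMA*, *LAMB*, *LAMC*). This gave 59 of the 47321 probes on the array, 41 for integrins and 18 for laminins, and 2 of the laminin probes belong to the pseudogene *LAMB2P1*. The probes name 37 of 20046 genes on the array, which are 36 chains, 26 of integrins and 10 of laminins, and the pseudogene.

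HCT116 is a human colorectal cancer cell line with 1 wild-type and 1 mutant allele of *CTNNB1*, which encodes β-catenin. In HCT116-WT the mutant allele was disrupted and in HCT116-MT the wild-type allele, so the sublines keep only a wild-type or only a mutant copy. Both were grown untreated in the same medium, and RNA of 2 samples of each line was hybridized to Illumina HumanHT-12 v4 BeadChips, 1 array per sample. Whether the samples of a line were separate cultures, and how many clones a line stands for, is not given in the sources used here, so the p-values measure no more than the spread between these 4 samples.

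Integrins are receptors of 1 α and 1 β chain that tie the extracellular matrix to the cytoskeleton, and the pairing decides the ligand: α3β1, α6β1, α6β4 and α7β1 bind laminins, α1, α2, α10 and α11 with β1 bind collagens, and α5β1 and the αV integrins bind proteins with an RGD motif such as fibronectin and vitronectin. Laminins are trimers of an α, a β and a γ chain and form the sheet of the basement membrane on which epithelial cells sit. In the gut epithelium the usual ligands are the α5 laminins, made of *LAMA5*, *LAMC1* and either *LAMB1* or *LAMB2*, and the β3 laminin, which holds the *LAMB3* chain and to which α6β4 anchors cells in hemidesmosomes.

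The 4 arrays were similar in yield: 41.4% to 42.5% of all probes had a detection p-value under 0.05 against the negative controls of their array, and the median intensity of all probes lay between 122 and 135. The *CTNNB1* probe read 2143 and 1949 (HCT116-WT) and 2833 and 2196 (HCT116-MT) after normalization, a log2 fold change of 0.29 with an SE of 0.20 (limma, adjusted p = 0.745), which checks that both lines express the gene and not which allele. Of the epithelial markers *EPCAM*, *CDH1*, *KRT8*, *KRT19* and *CDX2* were detected on all 4 arrays, *KRT18* and *VIL1* on none and *KRT20* on 1. Of the markers of other cell types, *PTPRC*, *CD3E* and *MS4A1* of leukocytes, *PECAM1*, *CDH5*, *KDR* and *TEK* of endothelium and *COL1A2*, *COL3A1*, *LUM*, *THY1* and *PDGFRA* of fibroblasts were detected on no array. The platelet markers *PF4*, *PPBP* and *GP9* were also detected on none. Other markers on these lists were detected: *COL1A1* and *PDGFRB* of fibroblasts, *VWF* of endothelium and *GP1BA* of platelets on all 4 arrays. *CD14* of leukocytes was detected on 3 arrays, *DCN* of fibroblasts on 2 and *LCP2* of leukocytes on 1. *CD68*, a lysosomal protein used as a macrophage marker, was the 1 marker of another cell type that was called, at 2314 and 3479 in HCT116-WT, against 793 and 1093 in HCT116-MT. Its part in the results below was not tested.

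Of the 59 probes, 30 and 34 were detected on replicates 1 and 2 of HCT116-WT and 31 on each HCT116-MT array. The comparison took the probes that 2 or more arrays detected, which kept 32 integrin and laminin probes and 25 chains, 18 of integrins and 7 of laminins. No chain was detected on both arrays of 1 line and on neither array of the other. In the map of detection p-values most probes were detected on all 4 arrays or on none.

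**Figure D1:**
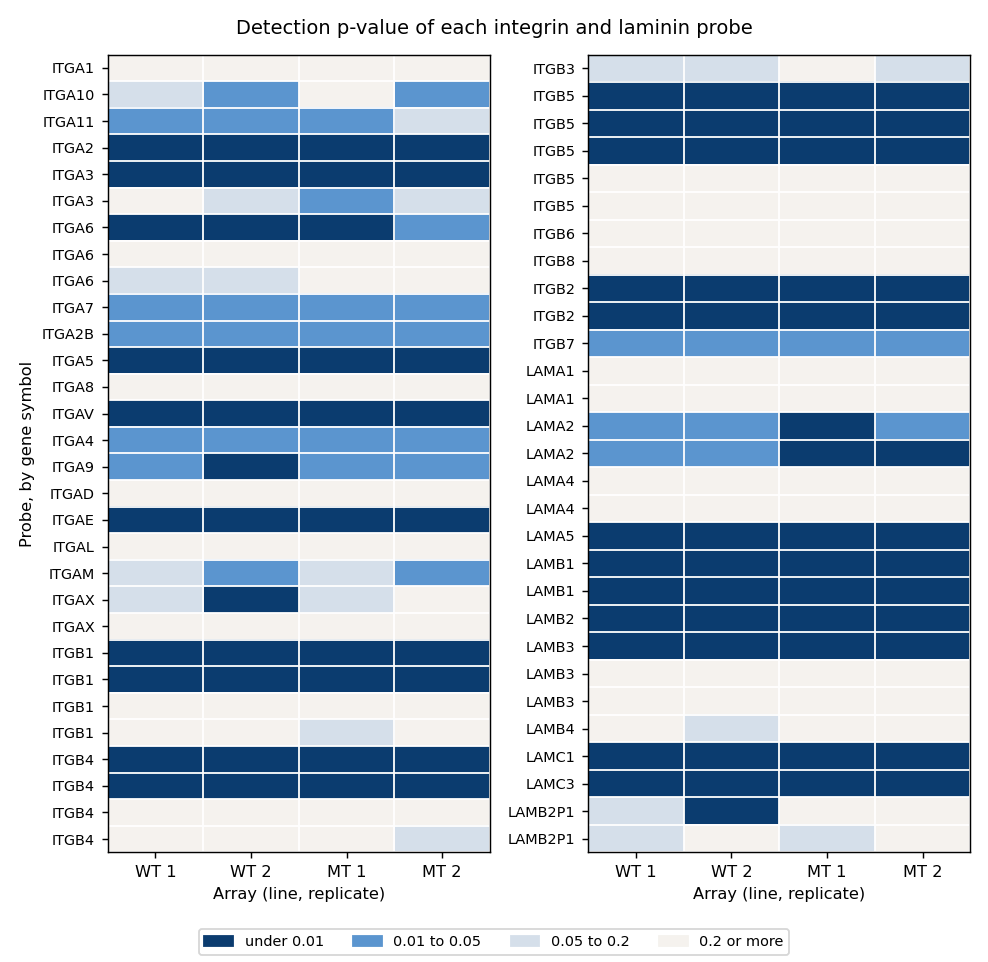
Detection p-value of each of the 59 integrin and laminin probes (rows, by gene symbol, some genes with several probes) on the 4 arrays (columns). Darker blue marks a lower detection p-value, and the boundary between detected and undetected is at 0.05; replicate 2 of HCT116-WT had the most detected probes, 34 of 59.

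The 11 chains without a compared probe were *ITGA1*, a collagen receptor chain, *ITGA8*, a partner of β1 that binds RGD ligands, *ITGAD*, *ITGAL* and *ITGAX*, the leukocyte chains that pair with β2, *ITGB3*, *ITGB6* and *ITGB8*, partners of αV, and the laminin chains *LAMA1*, *LAMA4* and *LAMB4*. 1 of the 2 *ITGAX* probes was detected on replicate 2 of HCT116-WT, at 310 against 136, 122 and 99.6 on the other arrays, and 1 of the 2 *LAMB2P1* probes was detected on the same array, at 231 against 132, 118 and 115. A further 8 chains were close to the detection limit, under 1.5 times the lowest detected signal of the array on all 4 arrays: *ITGA10*, *ITGA11*, *ITGA2B*, *ITGA4*, *ITGA7*, *ITGA9*, *ITGAM* and *ITGB7*. *ITGA10* and *ITGAM* were detected on replicate 2 of each line only, and *ITGA11* on 3 arrays. The other 17 chains, 10 of integrins and all 7 of laminins, were brighter than this on at least 1 array. Of 24 known integrin pairs 15 had both chains compared, and 7 had both among these brighter chains: α2β1, α3β1, α5β1, α6β1, αVβ1, α6β4 and αVβ5.

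HCT116-MT was compared with HCT116-WT to ask which chains differ between the lines. Allele and subline coincide in this design, so the *CTNNB1* allele and other differences between the sublines cannot be told apart. Following the study, a gene was called when its unadjusted p was under 0.05 and its fold change above 1.5, and each chain was represented by its brightest compared probe. 4 of the 25 chains fell in HCT116-MT, the laminin chains *LAMB3*, *LAMB2* and *LAMA5* and the integrin chain *ITGA3*, and 0 rose. Of 11875 genes treated the same way 3.86% were lower and 3.48% higher. At an adjusted p under 0.05 with limma 0 of the 25 chains were called, against 0.0168% of genes lower, and 5 chains had an unadjusted p under 0.05, against 10.7% of genes in either direction. The smallest adjusted p of a chain was 0.229.

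By direction 18 of the 25 chains had a lower mean in HCT116-MT, against 5942 of 11875 genes. Both HCT116-MT values lay below both HCT116-WT values in 9 chains and above them in 1, against 19.1% and 20.7% of genes. The median log2 fold change was -0.56 over the 7 laminin chains, -0.08 over the 18 integrin chains and -0.00 over all genes. The integrin median includes the chains close to the detection limit, where differences are understated, and the laminin median includes none of these. Over the 10 brighter integrin chains the median was -0.20, which is the closer comparison with -0.56. The number of chains that fell was 2, *LAMB2* and *LAMB3*, without replicate 2 of HCT116-MT. Since these are RNA measurements of whole cultures, fewer cells that express a chain and less RNA per cell cannot be told apart.

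**Figure D2:**
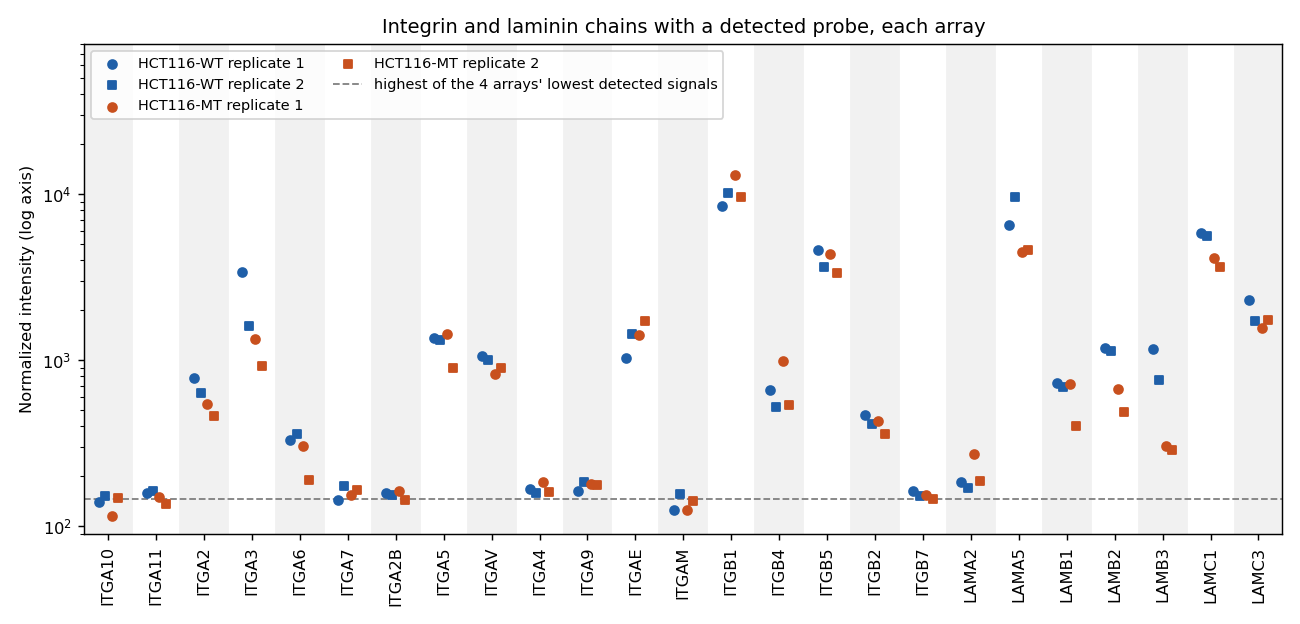
Normalized intensity (log axis) of the 25 compared chains on each array; blue marks HCT116-WT, orange HCT116-MT, circles replicate 1 and squares replicate 2, and the dashed line is the highest of the 4 arrays' lowest detected signals. Heights may be compared within a chain and not between chains, and both orange points lie clearly below both blue points for *LAMB3* and *LAMB2*.

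*LAMB3*, the β3 chain of the β3 laminin, showed the largest difference of the 25 chains. Its normalized intensity was 1161 and 758 in HCT116-WT, against 305 and 286 in HCT116-MT. The lines did not overlap, and the HCT116-MT values were close to each other and far below the lower HCT116-WT value. On the log2 scale it fell by 1.67 (limma SE 0.25, adjusted p = 0.229), to 31.5% of the HCT116-WT intensity. No background was subtracted from these intensities, and with neqc background correction the log2 fold change was -2.04. The other 2 *LAMB3* probes were detected on no array, and the files do not say which transcripts they read.

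*LAMB2*, the β2 chain of the α5 laminins, was at 1178 and 1133 in HCT116-WT, against 666 and 489 in HCT116-MT. The HCT116-WT values were close to each other and both HCT116-MT values were well below them. It fell by 1.02 (limma SE 0.21, adjusted p = 0.366), to 49.4% of the HCT116-WT intensity. With neqc background correction the log2 fold change was -1.15.

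*LAMA5*, the α chain of the α5 laminins, was at 6500.4 and 9573 in HCT116-WT, against 4499 and 4572 in HCT116-MT. The HCT116-MT values were nearly equal, and the HCT116-WT values, although higher, differed from each other by more than the lower of them differed from HCT116-MT. It fell by 0.80 (limma SE 0.23, adjusted p = 0.431). The log2 fold change was -0.51 and not called without replicate 2 of HCT116-WT, and without HCT116-MT replicate 1 or 2 it was -0.79 or -0.81 and also not called. *LAMA5* was -1.09 without replicate 1 of HCT116-WT and was then called.

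*LAMC1*, the γ chain of both α5 laminins, was at 5840 and 5610.5 in HCT116-WT, against 4123 and 3636 in HCT116-MT, so that the lines did not overlap. Its log2 fold change was -0.56 (limma SE 0.17, adjusted p = 0.445), a fold change of 1.48 and just under the threshold of 1.5. *LAMC1* was past it at -0.59 without replicate 2 of HCT116-WT, and at -0.61 with cyclic loess and -0.64 with no normalization.

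The other laminin chains were not called. *LAMB1*, the β1 chain of the α5 laminins, was at 725 and 692 in HCT116-WT, against 721 and 402 in HCT116-MT (log2 fold change -0.40 with SE 0.30), and 1 HCT116-MT value lay within the HCT116-WT range. The second *LAMB1* probe did not share this direction, with 246 and 255 in HCT116-WT, against 279 and 240 in HCT116-MT (log2 fold change 0.05). *LAMB1* was called at -0.82 without replicate 1 of HCT116-MT and was 0.03 without replicate 2. *LAMC3*, a γ chain with a narrower distribution than γ1, was at 2304 and 1713 in HCT116-WT, against 1567 and 1739 in HCT116-MT (log2 fold change -0.27 with SE 0.21).

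*LAMA2*, the α chain of muscle and nerve basement membranes, was the only chain of the 25 with both HCT116-MT values above both HCT116-WT values. It was at 183 and 168 in HCT116-WT, against 270 and 187 in HCT116-MT (limma log2 fold change 0.35 with SE 0.23, adjusted p = 0.724). The lowest detected signals were 142 to 145 on this scale, so its values outside replicate 1 of HCT116-MT were also close to the detection limit. The second *LAMA2* probe was at 174 and 164 against 274 and 196 (log2 fold change 0.46). Leaving out 1 array moved the first *LAMA2* probe between 0.09 and 0.64 without a call, and the second probe was called higher at 0.72 without replicate 2 of HCT116-MT and at 0.82 with neqc background correction.

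Sequences just upstream of the transcription start are shown for the 3 laminin chains that fell, 250 bases each, 5′ to 3′ on the strand of the gene, from RefSeq on GRCh38.p14. They lie at chr1:209652426-209652675 for *LAMB3*, chr3:49133051-49133300 for *LAMB2* and chr20:62367313-62367562 for *LAMA5*, all on the minus strand, and for *LAMB3* the first of 3 listed starts is given. Capitals mark CAGGTG, the E-box bound by ZEB and SNAI repressors.
LAMB3: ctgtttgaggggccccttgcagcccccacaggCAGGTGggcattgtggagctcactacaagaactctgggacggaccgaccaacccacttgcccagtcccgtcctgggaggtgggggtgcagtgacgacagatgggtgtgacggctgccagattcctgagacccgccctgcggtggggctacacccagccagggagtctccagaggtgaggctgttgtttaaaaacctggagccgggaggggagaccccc
LAMB2: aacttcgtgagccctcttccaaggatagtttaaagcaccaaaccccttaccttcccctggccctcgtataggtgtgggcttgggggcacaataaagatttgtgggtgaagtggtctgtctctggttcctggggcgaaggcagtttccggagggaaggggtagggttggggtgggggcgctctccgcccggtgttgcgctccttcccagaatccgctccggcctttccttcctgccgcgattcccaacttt
LAMA5: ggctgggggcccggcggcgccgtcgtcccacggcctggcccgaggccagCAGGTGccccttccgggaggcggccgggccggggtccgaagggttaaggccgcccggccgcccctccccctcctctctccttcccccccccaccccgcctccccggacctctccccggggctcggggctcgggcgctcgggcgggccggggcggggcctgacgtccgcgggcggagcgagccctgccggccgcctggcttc

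CAGGTG was found 218 bases before the first listed start of *LAMB3* and 201 bases before the start of *LAMA5*, and not in the *LAMB2* window. The windows of the other listed *LAMB3* starts held no CAGGTG. Windows were listed for 25 of the 36 chains, 32 windows in all, and none was listed for *ITGA3*. CAGGTG occurred in 7 of the 32 windows, against 17.5% of 35116 windows of all genes. CTTTGAT, a TCF/LEF motif, occurred in 0 of the 32 against 2.26%, the variant CTTTGAA in 2 against 3.8%, and the AP-1 motif TGACTCA in 1 against 4.2%, the third *LAMB3* window, 67 bases before that start. These are matches of letters, searched on both strands, and not measured sites.

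**Figure D3:**
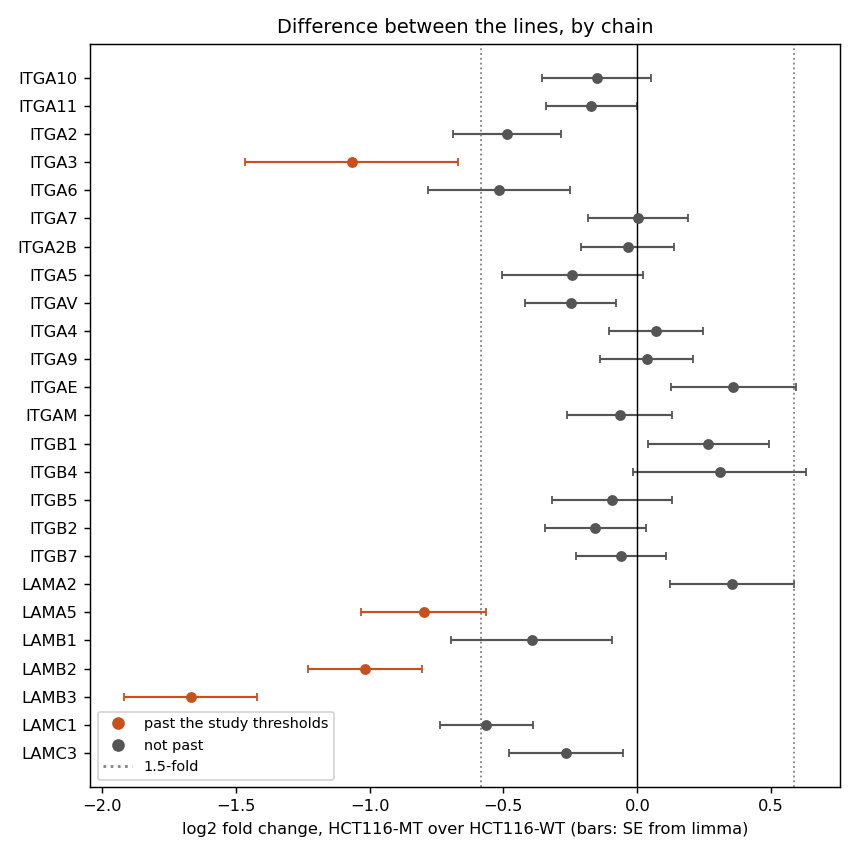
Log2 fold change of each of the 25 chains, HCT116-MT over HCT116-WT, with bars for the standard error from limma; dotted lines mark a fold change of 1.5 in either direction and orange the chains past the study thresholds. *LAMB3* (-1.67), *LAMB2* (-1.02), *ITGA3* (-1.07) and *LAMA5* (-0.80) are the 4 called chains.

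Among the integrins, *ITGA3* was the only chain of the 18 to be called. It encodes α3, which pairs with β1 to bind the β3 and α5 laminins. It was at 3383 and 1595 in HCT116-WT, against 1339 and 918 in HCT116-MT. The lines did not overlap, but the HCT116-WT samples differed from each other more than the lower of them differed from the HCT116-MT samples. *ITGA3* fell by 1.07 (limma SE 0.40, adjusted p = 0.511), and the call rested on single arrays: the log2 fold change was -0.53 with replicate 1 of HCT116-WT left out and -0.78 without replicate 2 of HCT116-MT, neither of them called, and -1.61 with replicate 2 of HCT116-WT left out. *ITGA3* was not called at -1.11 with median scaling. The second *ITGA3* probe was detected only on replicate 1 of HCT116-MT, at 146.

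*ITGA6*, the laminin-binding α chain that pairs with β1 or β4, was at 328 and 359 in HCT116-WT, against 305 and 189 in HCT116-MT. Replicate 2 of HCT116-MT was the lowest, and the lines did not overlap. The log2 fold change of -0.52 (limma SE 0.27, adjusted p = 0.637) was not called, and *ITGA6* was called at -0.86 without replicate 1 of HCT116-MT. Its 2 other probes were detected on no array.

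*ITGB4*, the hemidesmosome chain that pairs only with α6, went the other way without a call. It was at 657 and 521 in HCT116-WT, against 981 and 534 in HCT116-MT (limma log2 fold change 0.31 with SE 0.32, adjusted p = 0.840), with replicate 1 of HCT116-MT apart from the other 3 samples. A second detected probe gave 287 and 239 against 469 and 226 (log2 fold change 0.31), with the same sample highest. Without replicate 1 of HCT116-MT *ITGB4* was -0.13, and without replicate 2 it was 0.74 and not called, while its second detected probe was then called higher at 0.84. Of the β3 laminin and its receptor α6β4, *LAMB3* was thus the only one of the 3 measured chains to be called. *LAMA3*, the α chain listed with this laminin, had no probe named for it in the annotation used and was not measured.

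*ITGB1*, the β chain shared by most of these receptors, was at 8493 and 10188 in HCT116-WT, against 13026 and 9588 in HCT116-MT, and the lines overlapped (log2 fold change 0.26 with SE 0.22). A second *ITGB1* probe gave 0.24, and 2 more were detected on no array. *ITGA2*, which forms the collagen receptor α2β1, was at 781 and 629 in HCT116-WT, against 542 and 461 in HCT116-MT. Its lines did not overlap, its log2 fold change was -0.49 (limma SE 0.20, adjusted p = 0.543), and *ITGA2* was called at -0.65 without replicate 2 of HCT116-WT.

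No receptor chain for RGD ligands was called. *ITGA5*, the fibronectin receptor chain, was at 1365 and 1326 in HCT116-WT, against 1442 and 895 in HCT116-MT (log2 fold change -0.24 with SE 0.26). *ITGAV* was at 1051 and 1000.2 in HCT116-WT, against 828 and 898 in HCT116-MT, with no overlap (log2 fold change -0.25 with SE 0.17). *ITGB5*, the 1 αV-specific β chain that was detected, was at 4591 and 3645 against 4371 and 3357, and its 3 detected probes gave log2 fold changes of -0.09, 0.13 and 0.26, so that no direction held over its probes. The direction of *ITGA5* was not stable either, at 0.10 without replicate 2 of HCT116-MT. These values cannot tell a small difference from none with 2 samples a line.

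2 chains named for leukocytes were well detected in these epithelial cells. *ITGAE*, the αE chain whose integrin αEβ7 binds E-cadherin, was at 1031 and 1442 in HCT116-WT, against 1416 and 1727 in HCT116-MT (limma log2 fold change 0.36 with SE 0.23, adjusted p = 0.724). Its partner *ITGB7* was near the detection limit in all 4 samples, between 146 and 162. *ITGAE* was called at 0.60 without replicate 2 of HCT116-WT, the only chain of the 25 to be called higher by its brightest probe when a single array was left out. *ITGB2*, the β chain of the leukocyte integrins, was at 464 and 414 in HCT116-WT, against 430 and 360.3 in HCT116-MT (log2 fold change -0.16 with SE 0.19), while its α partners *ITGAD*, *ITGAL* and *ITGAX* were undetected on at least 3 arrays and *ITGAM* was dim. A second *ITGB2* probe gave 397 and 368 against 336 and 284 (log2 fold change -0.31).

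Of the 8 chains near the detection limit, the log2 fold changes lay between -0.17 (*ITGA11*) and 0.07 (*ITGA4*). *ITGA11* was the 1 of them whose lines did not overlap, at 159 and 162 in HCT116-WT, against 150 and 136 in HCT116-MT. The other 7 overlapped, among them *ITGA10*, at 139, 151, 115 and 149, and *ITGA9*, at 163, 185, 180.0 and 176 in the same order of samples. No background was subtracted, so differences this close to the detection limit are understated, and these values do not show equal expression.

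**Figure D4:**
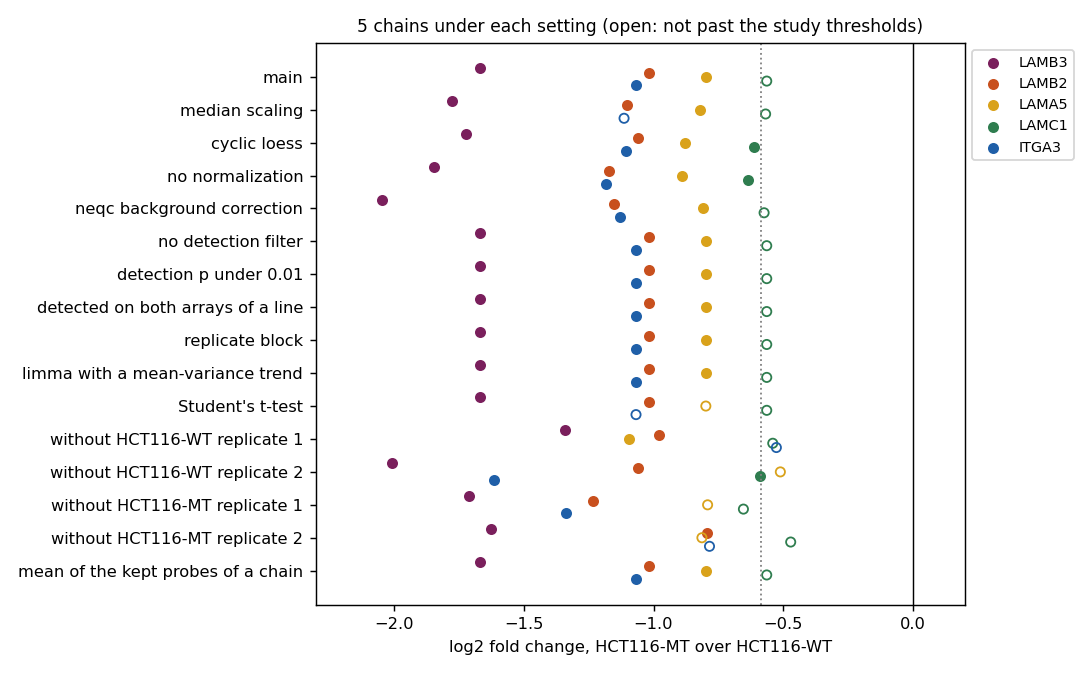
Log2 fold change (HCT116-MT over HCT116-WT) of 5 chains under the main processing and 15 alternatives; filled points were past the study thresholds, open points were not, and the dotted line marks a fold change of 1.5. *LAMB3* and *LAMB2* are filled in every row, *LAMA5* is open in 4 of the 15 alternatives, *ITGA3* in 4, and *LAMC1* is filled in 3.

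Genes that work with these chains were set beside them as 4 lists. Of 35 genes listed as integrin adaptors, which include signaling and regulatory genes, 27 were compared. Of these 3 rose and 1 fell, beside the 3.48% higher and 3.86% lower of all genes, and the median log2 fold change was 0.10. *TNS3*, a tensin that binds integrin β tails, was at 827 and 538 in HCT116-WT, against 2082 and 1431 in HCT116-MT (limma log2 fold change 1.37 with SE 0.29, adjusted p = 0.378), with no overlap. *FERMT2*, the integrin activator kindlin-2, rose by 0.63 from 2112 and 3153 to 3907 and 4089, and *PXN*, the focal adhesion scaffold paxillin, by 0.63 from 387 and 469 to 751 and 580.1. *FERMT2* was not called without replicate 1 of HCT116-WT (0.35) or without HCT116-MT replicate 1 (0.66) or 2 (0.59), and *PXN* not without replicate 1 of HCT116-WT (0.49) or of HCT116-MT (0.44). Another scaling ended these calls too, for *FERMT2* at 0.58 with cyclic loess and 0.54 with no normalization and for *PXN* at 0.55 with median scaling and 0.48 with no normalization. *ACTN4*, the actin crosslinker α-actinin-4, fell by 0.70, from 3808 and 3827 to 2247 and 2452, and was -0.64 and not called without replicate 1 of HCT116-MT.

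Of 21 basement membrane and laminin partner genes 11 were compared. *AGRN*, a heparan sulfate proteoglycan that binds laminin, fell by 0.93 (limma SE 0.18, adjusted p = 0.308), from 1089.8 and 1142 in HCT116-WT to 634 and 539 in HCT116-MT. *COL4A5*, a collagen IV chain, fell by 0.76 (limma SE 0.19, adjusted p = 0.408), from 2188 and 2143 to 1145 and 1432, and was -0.59 and not called without replicate 1 of HCT116-MT. These 2 fell and 0 rose, beside the 3.86% and 3.48% of all genes, 10 of the 11 had a lower mean in HCT116-MT, against 5942 of 11875 genes, and the median was -0.36. *SDC4*, the heparan sulfate proteoglycan syndecan-4, was at 726 and 717 in HCT116-WT, against 449.7 and 541 in HCT116-MT (limma log2 fold change -0.55 with SE 0.18, adjusted p = 0.465), under a fold change of 1.5. *SDC4* was called at -0.65 with median scaling, -0.59 with cyclic loess, -0.71 with no normalization, -0.65 with neqc and -0.68 without replicate 2 of HCT116-MT. *COL4A1*, *NID1*, *NID2* and *HSPG2*, a widespread collagen IV chain, the nidogens and perlecan, were detected on no array.

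Of 5 partners of hemidesmosomes and of laminin-binding integrins 4 were compared, with a median of -0.45. Of these 0 were called, beside the 3.86% lower and 3.48% higher of all genes. *PLEC*, which links α6β4 to keratin, was at 468 and 453 in HCT116-WT, against 278 and 349.9 in HCT116-MT (log2 fold change -0.56 with SE 0.19), and *CD151*, a tetraspanin that binds α3β1 and α6β4, was at 15736 and 13886 against 11737 and 9407 (log2 fold change -0.49 with SE 0.20). Both had an unadjusted p under 0.05 with limma and no overlap between the lines, but fold changes under 1.5. Among all genes 10.7% had such a p in either direction, and 19.1% were lower without overlap. *PLEC* was called at -0.66 with median scaling, -0.60 with cyclic loess, -0.73 with no normalization, -0.75 with neqc and -0.73 without replicate 2 of HCT116-MT.

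Of 29 other integrin ligands 13 were compared, 1 rose and 1 fell, beside the same shares of all genes, with a median of -0.18. *CDH1*, E-cadherin and the ligand of αEβ7, fell by 1.91 (limma SE 0.22, adjusted p = 0.153), from 2227 and 1910.4 to 641 and 472. *SPP1*, osteopontin, rose by 0.76 (limma SE 0.22, adjusted p = 0.425), from 179.8 and 246 to 373 and 339.6, and was not called without replicate 1 of HCT116-WT (0.52) or of HCT116-MT (0.69). *FN1* and *VTN*, fibronectin and vitronectin, were detected on no array.

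**Figure D5:**
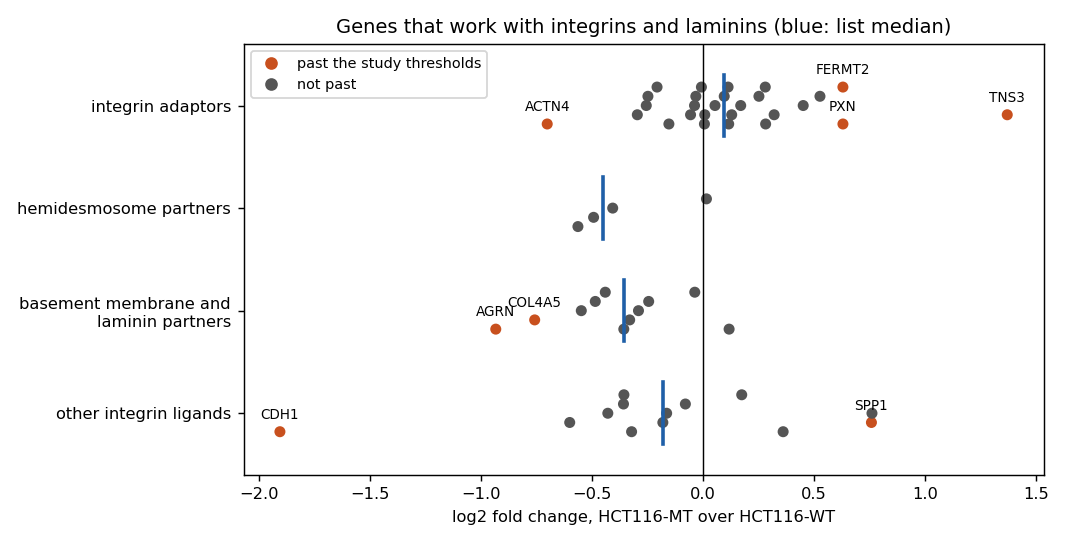
Log2 fold change (HCT116-MT over HCT116-WT) of the compared genes in 4 lists of genes that work with integrins and laminins; each point is a gene, blue bars mark list medians and orange the genes past the study thresholds. The medians are 0.10, -0.45, -0.36 and -0.18 from top to bottom, beside -0.00 over all genes.

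The marker lists moved as follows. Of 8 epithelial markers 5 were compared, and *CDH1* and *EPCAM* fell, *EPCAM* by 0.92 (limma SE 0.29, adjusted p = 0.449). By the same rule 3.86% of all genes were lower and 3.48% higher, and 19.1% were lower without overlap between the lines. With so few genes compared, 0 called in the other marker lists is therefore no result about those cell types. The summed level of the compared epithelial markers was 29889 to 35026 in HCT116-WT, against 17421 to 20712 in HCT116-MT. The largest part of it on each array was *EPCAM*, at 22117 and 14375 in HCT116-WT, against 7883 and 11200 in HCT116-MT. *KRT8* (log2 fold change -0.35) and *KRT19* (-0.60) were lower without a call, and *CDX2* was higher (0.19) without a call. For fibroblasts 3 of 8 were compared and 0 called, with sums of 703 to 770 and 687 to 758, for endothelium 1 of 5 (*VWF*) and 0 called, with 179 to 191 and 143 to 154, so that its lines did not overlap (*VWF* was called at -0.67 with neqc), and for platelets 1 of 4 (*GP1BA*) and 0 called, with 376 to 449 and 429 to 482. For leukocytes 2 of 7 were compared and *CD68* fell by 1.61 (adjusted p = 0.265 with limma), with sums of 2453 to 3642 and 947 to 1252, most of it *CD68*. The part of these markers in the differences between the chains was not tested.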

How the data were processed

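Total RNA was labelled with biotin and measured on HumanHT-12 v4 BeadChips, and the authors extracted the data with GenomeStudio v2011.1. The deposited table pairs, per probe, the intensity on each array, before any normalization, with a deposited detection p-value against that array's negative controls. The deposited series table holds the same intensities, but 26122 of 47319 shared probe IDs (55.2%) carry another value there. Among those IDs, the log2 fold changes of 2 bright probes of a gene correlated with r = 0.913 over 532 genes in the non-normalized table and r = 0.298 over 464 genes in the series table (across genes, which are not independent), so the former was used. Of the 59 integrin and laminin probes 0 differ between the tables.

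The log2 of the deposited intensities was quantile-normalized, as in the study's methods, and values are printed back on the linear scale as normalized intensities. Kept were 20579 of 47321 probes, those that 2 or more of the 4 arrays detected at p under 0.05. The lines were compared with limma 3.58.1 (R 4.3.3), and p-values were adjusted by Benjamini-Hochberg over all kept probes. The study's integrated statistical method is not described in the sources used here, and limma stood in for it. Gene symbols came from the platform annotation (30112 probes with 1 symbol, 8 with several, 17201 with none). The brightest kept probe stood for a gene. The number of arrays limits the precision. The steps were tested on simulated data. Plots were made in Python 3.11.15 (matplotlib 3.10.9).

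Named in the text are all chains with a probe in the table used, the list genes past the study thresholds (up to 4 a list) and a few further list genes chosen after their values were seen. The members and lists were chosen with earlier results of these data known. Alternatives were median scaling, cyclic loess, no normalization, neqc background correction (offset 16), other detection filters (none, a detection p-value under 0.01, detection on both arrays of a line), a block for the replicate number, a mean-variance trend, Student's t-test, each array left out, and the mean of a chain's kept probes. The replicate numbers were not used as pairs in the main comparison. Over the kept probes the difference between replicates 1 and 2 in 1 line correlated with that in the other at r = 0.0537. This single value shows no broad shared shift and cannot tell whether samples of the same number were handled together. Chip barcodes were not given in the sources used here, so no chip effect was fitted.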

Additional observations from a re-analysis of the deposited data

How the results depend on the processing

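*LAMB3* (-2.04 to -1.34) and *LAMB2* (-1.23 to -0.79) were past the study thresholds under all 15 alternatives. The detection filters, replicate block, mean-variance trend, Student's t-test and mean of a chain's kept probes reuse the same normalized values. Each of these 2 chains has 1 kept probe, so their fold changes could not move there and only the p-values could. With all 4 arrays the adjusted p of *LAMB3* was 0.172 or more under every alternative (limma or Student's t-test). The number of chains that fell, 4, was 2 with Student's t-test per probe, where *LAMA5* and *ITGA3* were not called, and 2 to 5 with an array left out, and chains that rose, 0, numbered 0 to 1. Of single probes 4 fell, 2 with Student's t-test and 2 to 5 with an array left out, and 0 rose, 1 with neqc (*LAMA2*) and 0 to 2 with an array left out. Of genes in the 4 partner lists 4 rose, 2 with no normalization, 6 with neqc, 0 with Student's t-test and 1 to 5 with an array left out, and 4 fell, 9 with neqc and 4 to 6 with an array left out. With the replicate block 4 chains were called, the same 4. No normalization moved the median of all genes to -0.12, and the share of higher among all called probes was 50.4%, 34.7% with median scaling, 40.4% with cyclic loess and 18.4% with no normalization. Chains compared numbered 25, 17 at a detection p-value under 0.01 and 23 with detection on both arrays of a line. Directions reversed only for chains that were not called. With no normalization *ITGA4* was -0.029, *ITGA7* -0.079 and *ITGA9* -0.062, *ITGA7* was -0.011 with median scaling and -0.0020 with cyclic loess, and *ITGB5* was 0.098 with the mean of its probes. With 1 array left out the ranges that crossed 0 were -0.35 to 0.035 for *ITGA10*, -0.12 to 0.056 for *ITGA2B*, -0.029 to 0.17 for *ITGA4*, -0.59 to 0.097 for *ITGA5*, -0.14 to 0.15 for *ITGA7*, -0.056 to 0.13 for *ITGA9*, -0.21 to 0.089 for *ITGAM*, -0.13 to 0.74 for *ITGB4*, -0.28 to 0.092 for *ITGB5* and -0.82 to 0.028 for *LAMB1*. The cause of these changes was not tested. With an array left out, the lone array of its line was assumed to vary like the other line. Signal near the detection limit restricts what 8 of the chains can show, and also *LAMA2* outside replicate 1 of HCT116-MT.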
